A study of Homo sapiens with 6 samples.

Results

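The genes described here are the writers and erasers of DNA methylation: DNMT1, DNMT3A, DNMT3B, DNMT3L, UHRF1, TET1, TET2 and TET3. They were taken by gene name from a table of 58735 genes, and all 8 were found. The study followed H9, an established human embryonic stem cell line, through differentiation into cardiac organoids, which are small cultures in which stem cells form heart tissue. RNA was sequenced at day 0 and at days 2, 3, 4, 6 and 30, with 1 library for each day, and the labels give 10 organoids per harvest. Every library carries the same labels for line and cell type (embryonic stem cell), so the groups differ in the labels only by day. No treatment, genotype or differentiation agent is named in the sources used here, and 1 cell line stands for all of the results.

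DNA methylation is the addition of a methyl group to cytosine, in mammals mostly where cytosine is followed by guanine (a CpG site). After DNA replication only the old strand carries the mark: UHRF1 recognises such sites and brings in DNMT1, which methylates the new strand. DNMT3A and DNMT3B place methyl groups on unmethylated DNA (de novo methylation), and DNMT3L is a relative without catalytic activity that assists them. The TET enzymes oxidise methylcytosine, which leads to its loss by dilution or by base excision repair. Pluripotent stem cells are known for abundant DNMT3B and TET1.

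Levels are given as FPKM, reads per gene scaled for gene length and library size. Whole reads could be recovered from the deposited values, with 13500887 to 15526924 reads per library, and the intervals below are exact 95% intervals from these reads. They cover counting error only. With 1 library per day there was no spread between replicates and no test, so each difference is between those libraries. A gene entered a comparison when its FPKM was at least 1 in either library, and was called higher or lower when log2(FPKM + 1) differed by at least 1. The labelled cell type was checked against marker genes. All 8 pluripotency markers were above 1 FPKM at day 0 (POU5F1 561 FPKM), and all 8 were called lower at day 30, where all 8 cardiomyocyte and all 7 fibroblast markers were called higher. So were 6 of 7 liver and gut endoderm markers and 3 of 4 endothelial markers compared. In bulk RNA, fewer cells of a type and less RNA per cell cannot be told apart.

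The main changes were a fall of DNMT3B from 409.5 to 5.93 FPKM, a fall of TET1 from 38.1 to 13.5 FPKM, a higher TET2 at day 30, and a level of UHRF1 that was high from day 2 to day 6 and low at both ends. DNMT1, DNMT3A and TET3 were not called in any of the 7 comparisons, and DNMT3L stayed below 1 FPKM and was not compared. Between day 0 and day 2, 1 of 7 members compared was called higher (UHRF1), against 8.78% of all genes, and 2 were called lower (DNMT3B and TET1), against 7.75%. Between day 2 and day 3, none was called higher and DNMT3B was called lower, where 7.13% of all genes were higher and 4.98% lower. No member was called between day 3 and day 4 (4.23% of all genes higher, 3.59% lower) or between day 4 and day 6 (5.51% higher, 6.71% lower). From day 6 to day 30, TET2 was called higher and DNMT3B and UHRF1 lower, beside 21.0% and 15.3% of all genes. From day 0 to day 6, UHRF1 was higher and DNMT3B and TET1 lower, beside 14.9% and 13.1%. From day 0 to day 30, TET2 was higher and DNMT3B and TET1 lower, beside 25.9% and 19.1%. With 7 members compared, these shares correspond to 1 or 2 genes per direction in the long comparisons, so the number of members called there was near the background. The comparisons share libraries and are not independent of each other.

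**Figure D1:**
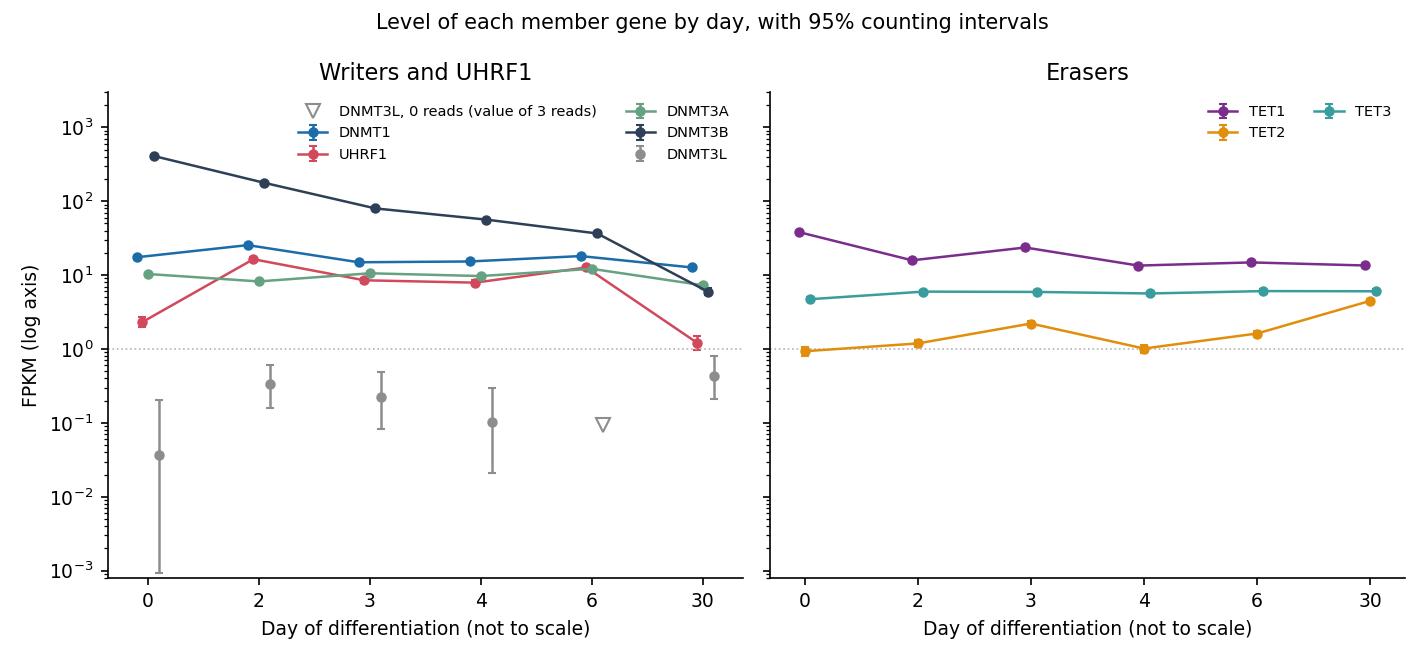
FPKM (log axis) of each gene on the 6 days, in 1 library per day; points are levels, bars are 95% counting intervals, the dotted line marks 1 FPKM, and the open triangle marks the value of 3 reads where DNMT3L had 0 reads. DNMT3B lies above the other 7 genes from day 0 to day 6 and near DNMT3A at day 30, and UHRF1 lies above 7 FPKM only from day 2 to day 6.

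DNMT1, the maintenance methyltransferase, lies on the minus strand at chr19:10133345-10231286 (GRCh38). Its level was 17.4 FPKM at day 0, 25.4 at day 2, 14.9 at day 3, 15.3 at day 4, 18.1 at day 6 and 12.7 at day 30. The high point was day 2 and the low point day 30, with a ratio of 2.00 between them. The difference at day 2 against day 0 was 0.52 on the log2 scale, with an FPKM ratio of 1.46 (1.39 to 1.53), and at day 30 against day 0 it was -0.43, so neither reached the rule. S1PR2, a receptor gene on the same strand that overlaps DNMT1, was at 5.18 FPKM at day 0 and 21.8 at day 30, and how reads in the overlap were assigned was not tested.

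UHRF1, which brings DNMT1 to newly replicated DNA, lies on the plus strand at chr19:4903080-4962154. It was at 2.31 FPKM at day 0 (173 reads), 16.4 at day 2 (1358 reads), 8.50 at day 3, 7.90 at day 4, 12.7 at day 6 and 1.21 at day 30 (77 reads). The 4 libraries from day 2 to day 6 were high and those of day 0 and day 30 low, with no overlap of their counting intervals. UHRF1 was 7.08-fold higher at day 2 than at day 0 (6.04 to 8.35), a log2 difference of 2.39 that exceeded that of 98.7% of the genes compared. It was 10.5-fold lower at day 30 than at day 6 (8.29 to 13.3). Day 30 against day 0 gave an FPKM ratio of 0.523 (0.395 to 0.689) and a log2 difference of -0.58, which was not called. Among protein-coding genes UHRF1 ranked 9519 by FPKM at day 0, 2502 at day 2 and 11580 at day 30. Its level relative to DNMT1 was 0.133 at day 0, between 0.517 and 0.701 from day 2 to day 6, and 0.0954 at day 30.

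UHRF1 has a processed pseudogene, AC112777.1, at chr12:20551590-20553012, a copy of its messenger RNA put back into the genome. Its 1423 bases aligned to the UHRF1 transcript with 8 mismatches, an identity of 99.4%, and the longest identical run was 622 bases. The stretch of 120 bases with the most mismatches is shown because it is where reads of the gene and the copy can be told apart, with the 5 differing bases in capitals; the UHRF1 bases are coding, lie on the plus strand of GRCh38 at chr19:4945891-4947149 and span an intron, and those of the copy lie at chr12:20551965-20552084.
UHRF1: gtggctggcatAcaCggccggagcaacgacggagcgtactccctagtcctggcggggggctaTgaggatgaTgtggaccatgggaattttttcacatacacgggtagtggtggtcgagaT
AC112777.1: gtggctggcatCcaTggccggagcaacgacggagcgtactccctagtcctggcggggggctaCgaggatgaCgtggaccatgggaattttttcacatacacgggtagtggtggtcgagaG
Reads listed for the pseudogene were 21 at day 0, 72 at day 2, 43 at day 3, 56 at day 4, 84 at day 6 and 16 at day 30. They were thus high and low on the same days as UHRF1 itself, and were between 5.03% and 17.2% of the reads of both genes. With these reads added to UHRF1, day 2 was 6.65-fold higher than day 0 (5.72 to 7.77). Reads that match both places equally well may have been split or lost in the authors' counting, which was not tested.

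RefSeq start sites (GRCh38.p14) were listed for 7 of the 8 genes, with 250 bases before and 50 after each start. These windows were searched on both strands for TTTCCCGC, TTTCGCGC, TTTGCCGC and TTTGGCGC, forms of the site bound by E2F, the transcription factor family of genes used in S phase, the phase of DNA replication. The DNMT1 window and 2 of 3 UHRF1 windows held such a match, and no window of DNMT3A, DNMT3B, TET1, TET2 or TET3 did. Some listed starts lie far inside the gene as the deposited table bounds it, by 36333 bases for DNMT1 and 17467 for DNMT3B, so other starts of these genes were not searched. Of all 35116 windows 3.31% held a match. Counted by gene at any start, 1090 of 27305 genes (3.99%) had one, and so did 8 of the 15 genes of an S phase list with windows. The DNMT1 window and the first UHRF1 window are shown because these 2 genes act together at replicated DNA, with the match in capitals and 20 bases after the start; DNMT1 is read on the minus strand at chr19:10194934-10195203 and UHRF1 on the plus strand at chr19:4909251-4909520.
DNMT1: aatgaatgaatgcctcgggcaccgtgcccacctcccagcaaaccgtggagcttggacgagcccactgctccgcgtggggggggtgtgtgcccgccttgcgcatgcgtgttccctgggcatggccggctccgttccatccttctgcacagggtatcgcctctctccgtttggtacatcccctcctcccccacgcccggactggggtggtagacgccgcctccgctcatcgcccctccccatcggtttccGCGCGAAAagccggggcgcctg
UHRF1: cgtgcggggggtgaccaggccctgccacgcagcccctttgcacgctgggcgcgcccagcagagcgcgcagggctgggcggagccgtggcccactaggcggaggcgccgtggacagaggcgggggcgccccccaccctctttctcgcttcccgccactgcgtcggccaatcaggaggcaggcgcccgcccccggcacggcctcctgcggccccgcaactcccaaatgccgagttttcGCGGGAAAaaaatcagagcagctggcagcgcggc
The match begins 2 bases before the start in DNMT1 and 14 bases before it in UHRF1. A match in these letters is a description of the window and not a measured site. ATGCAAAT, the octamer bound by POU factors, was in no window of the 7 genes and in 1.77% of all windows.

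The levels of 18 S phase and proliferation genes stand beside those of UHRF1 and DNMT1. Their summed FPKM was 767 at day 0, 714.5 at day 2, 482.7 at day 3, 345.6 at day 4, 504.5 at day 6 and 126.1 at day 30. At day 2 against day 0, 1 of 18 was called higher (FEN1, a nuclease of DNA replication) and none lower, with a list median of 0.08 on the log2 scale, while UHRF1 differed by 2.39. At day 30 against day 0 all 18 were called lower with a median of -2.47, and at day 30 against day 6 all 18 were lower with a median of -1.90, where UHRF1 differed by -2.63 and DNMT1 by -0.48. The day 0 library was thus high in the S phase genes and low in UHRF1, and the day 30 library was low in both. Differences from day 0 also moved with the GC content of transcripts: at day 2 the median log2 difference was -0.38 in the bin of genes lowest in GC and 0.55 in the highest. UHRF1 transcripts have 58.1% GC, the median of its bin was 0.24, and its difference less that median was 2.16. The part of GC content in these values was not tested further. At day 30 against day 0 the UHRF1 difference less its bin median was -1.04, which would be called lower.

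**Figure D2:**
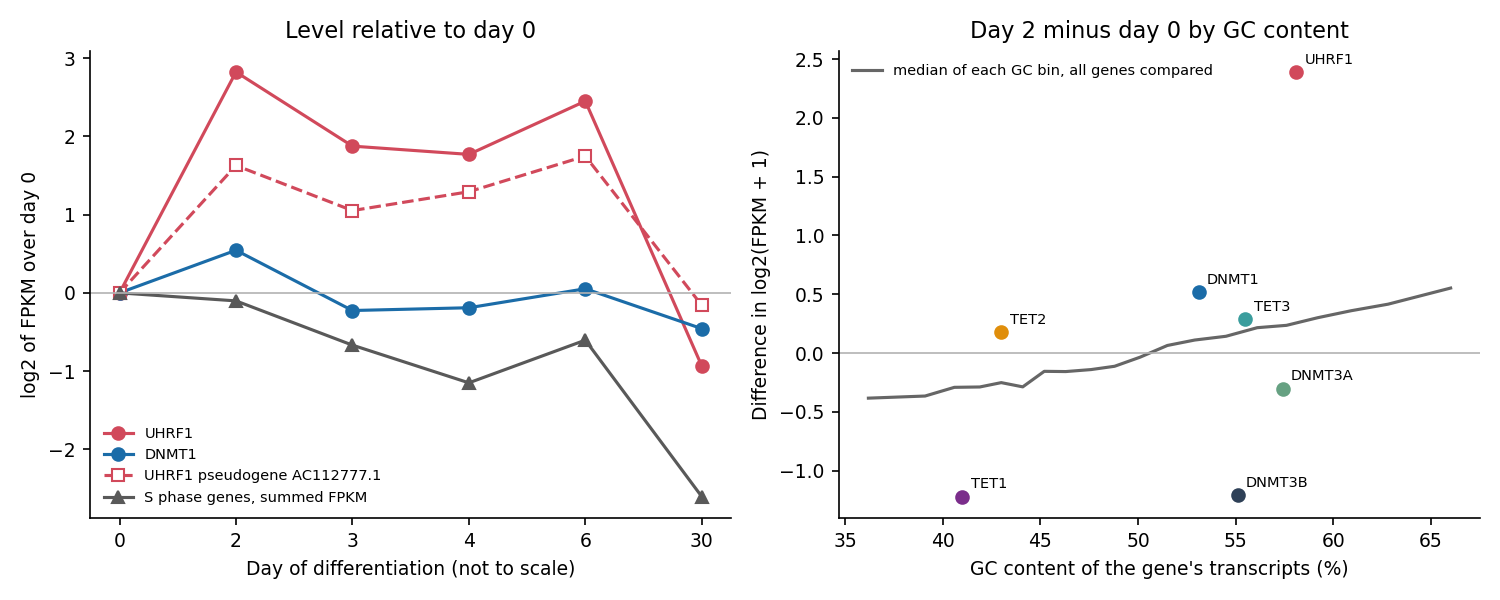
Left, log2 of FPKM relative to day 0 for UHRF1, DNMT1, the UHRF1 pseudogene and the summed FPKM of 18 S phase genes, by day. Right, day 2 minus day 0 in log2(FPKM + 1) against the GC content of transcripts, with 7 members as points and the median of 20 GC bins as a line; UHRF1 at 2.39 lies far above the median of its bin, 0.24, and TET1 lies at the low end of GC, where the bin median was -0.29.

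DNMT3B, a de novo methyltransferase, lies on the plus strand at chr20:32762385-32809356. It was at 409.5 FPKM at day 0, 177 at day 2, 79.8 at day 3, 56.3 at day 4, 36.5 at day 6 and 5.93 at day 30, from 27545 reads down to 339. Each library was lower than the one before it, and no neighbouring counting intervals overlapped. Day 2 was 2.32-fold lower than day 0 (2.27 to 2.36), day 3 was 2.22-fold lower than day 2 (2.15 to 2.29), and day 30 was 6.17-fold lower than day 6 (5.51 to 6.92). The steps to day 4 and day 6, with FPKM ratios of 0.706 and 0.649, did not reach the rule, and with TPM scaling the step to day 3 did not either (log2 difference of -0.91). Over the whole course the fall was 69.1-fold (62.1 to 77.1), a log2 difference of -5.89, and 0.145% of the genes compared had a more negative one. DNMT3B ranked 41 by FPKM among protein-coding genes at day 0 and 6646 at day 30.

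As a percent of its day 0 level, DNMT3B was at 43.2 at day 2, 19.5 at day 3, 13.7 at day 4, 8.92 at day 6 and 1.45 at day 30. The summed FPKM of the 8 pluripotency markers was at 44.8% of its day 0 level at day 2, 20.6% at day 3, 12.9% at day 4, 5.76% at day 6 and 0.313% at day 30. The percentages lay close together up to day 4, and at day 30 DNMT3B kept 1.45% of its level where the markers kept 0.313%. This holds for the sum, most of which at day 0 was POU5F1, DPPA4 and L1TD1 (561, 333 and 288 FPKM). Single markers differed widely: from day 0 to day 4 PRDM14 went from 31 to 0.311 FPKM and TDGF1 from 150 to 99.9. POU5F1, which maintains pluripotency, fell 2010-fold from day 0 to day 30 (1090 to 4190), and ZFP42, another marker, fell 27.9-fold (21.0 to 37.7). The fall of DNMT3B thus lay between that of ZFP42 and those of the other markers, of which DPPA4 fell least, 183-fold. Their part in the DNMT3B level was not tested.

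DNMT3A, the other de novo methyltransferase, lies on the minus strand at chr2:25227855-25342590. It was at 10.3 FPKM at day 0, 8.20 at day 2, 10.6 at day 3, 9.70 at day 4, 12.1 at day 6 and 7.29 at day 30. Its highest and lowest days, 6 and 30, differed by a ratio of 1.67, and no comparison was called with the deposited scaling. At day 30 against day 6 the log2 difference was -0.67 with that scaling. It was -1.06 with scaling by read totals and -1.02 with TPM scaling, both of which would be called lower. DNMT3L, the cofactor without catalytic activity, lies on the minus strand at chr21:44246339-44262216. It had 1, 10, 6, 3, 0 and 10 reads in the 6 libraries in order of day, with a highest FPKM of 0.435 (0.209 to 0.801) at day 30. All of its levels were under 1 FPKM. The 0 reads at day 6 set a floor of 0.0933 FPKM (3 reads), and the exact interval used for the other levels gave an upper bound of 0.115 FPKM. With TPM scaling DNMT3L passed the minimum and was called higher at day 30 against day 6 and against day 0, on 10 reads at day 30.

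The proportions of the pair differed by day. DNMT3B made up 97.5% of the summed FPKM of DNMT3A and DNMT3B at day 0 (97.4 to 97.6), 95.6% at day 2, 88.3% at day 3, 85.3% at day 4, 75% at day 6 and 44.9% at day 30 (41.8 to 47.9). Only at day 30 was DNMT3A the more abundant of the pair per length. DNMT1, DNMT3A, DNMT3B and DNMT3L together summed to 437.3 FPKM at day 0 and 26.3 at day 30, of which DNMT3B was 93.6% and 22.5%. The 3 TET genes summed to 43.8 FPKM at day 0 and 24.0 at day 30. The DNMT sum was thus 9.99 times the TET sum at day 0 and 1.10 times at day 30. These sums and their ratio rest on the deposited gene lengths and were not computed with the lengths of principal transcripts.

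**Figure D3:**
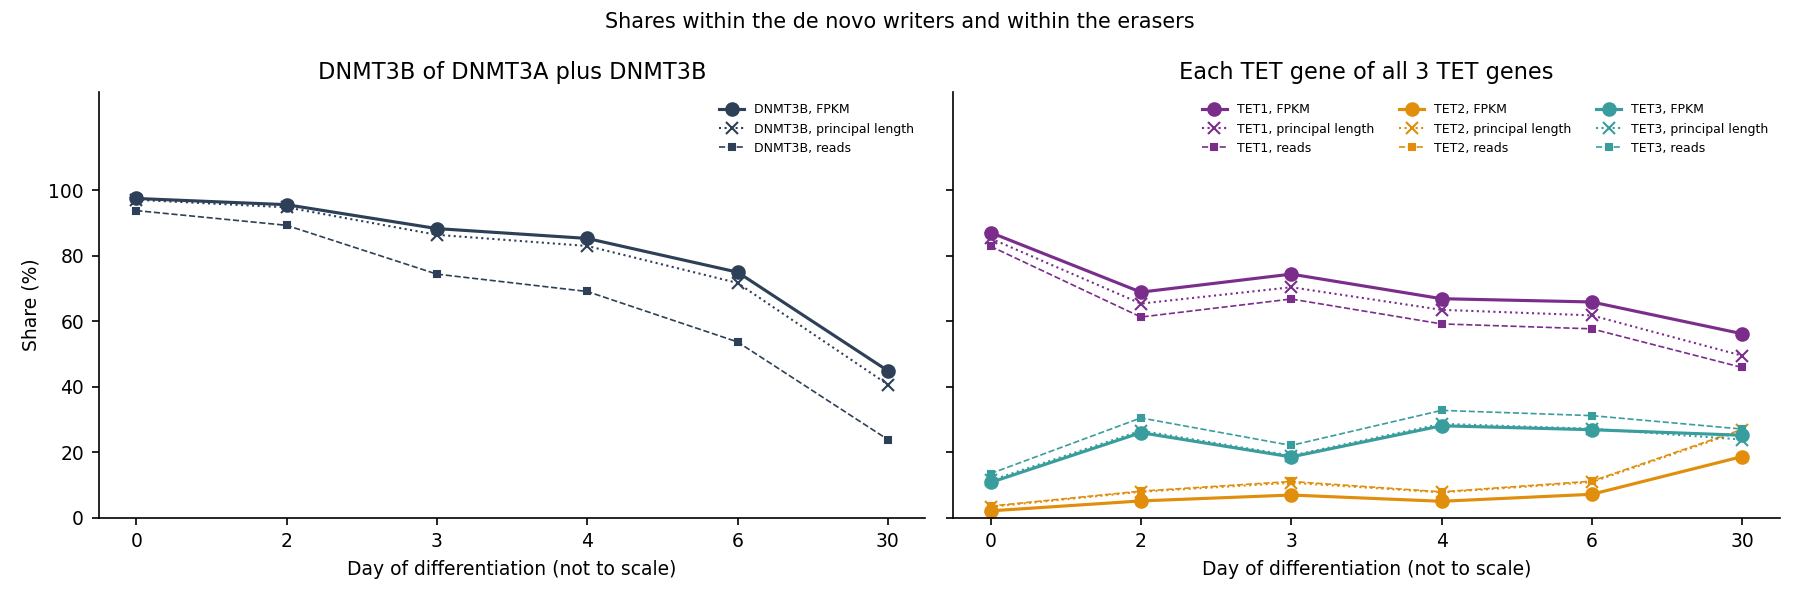
Shares in percent by day: left, DNMT3B of DNMT3A plus DNMT3B; right, each TET gene of all 3. Solid lines are shares of FPKM, dotted lines use the length of the principal transcript, and dashed lines are shares of reads. The DNMT3B share goes from 97.5% to 44.9% of FPKM and the TET1 share from 87.1% to 56.2%.

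TET1, the main TET enzyme of pluripotent cells, lies on the plus strand at chr10:68560656-68694482. It was at 38.1 FPKM at day 0, 15.8 at day 2, 23.6 at day 3, 13.4 at day 4, 14.8 at day 6 and 13.5 at day 30. The day 0 library was high, day 3 stood between, and the other 4 libraries lay between 13.4 and 15.8 FPKM. TET1 was 2.41-fold lower at day 2 than at day 0 (2.29 to 2.53), 2.57-fold lower at day 6 (2.45 to 2.70) and 2.83-fold lower at day 30 (2.67 to 3.00). Between day 6 and day 30 the FPKM ratio was 0.909 (0.852 to 0.969), a log2 difference of -0.13, while DNMT3B fell 6.17-fold. TET1 transcripts have 41.0% GC, and less the median of their GC bin the differences at day 2 and day 6 were -0.93 and -0.91, short of the rule, and that at day 30 was -1.15. With TPM scaling the difference at day 6 was -0.98.

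TET2, which unlike TET1 and TET3 has no CXXC DNA-binding domain of its own, lies on the plus strand at chr4:105145875-105279816. It was at 0.932 FPKM at day 0, 1.19 at day 2, 2.21 at day 3, 1.01 at day 4, 1.62 at day 6 and 4.48 at day 30. The high library was that of day 30, and its counting interval (4.20 to 4.78) lay above those of the other 5. TET2 was 4.81-fold higher at day 30 than at day 0 (4.15 to 5.59), a log2 difference of 1.50 that exceeded that of 85.5% of the genes compared. At day 30 against day 6 it was 2.77-fold higher (2.47 to 3.10), a log2 difference of 1.07 just past the rule, which became 0.74 with scaling by read totals, 0.92 with TMM scaling and 0.98 less the median of its GC bin. At day 3 its FPKM ratio to day 2 was 1.86 (1.61 to 2.15) and at day 4 its ratio to day 3 was 0.459 (0.394 to 0.533), neither of which reached the rule; the second would be called lower with a pseudocount of 0.1 (log2 difference of -1.05) or with TPM scaling (-1.08).

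Markers of several cell types also differed between day 0 and day 30, though not all on the same days as TET2. TET2 was at 1.62 FPKM at day 6 and 4.48 at day 30. The 7 fibroblast markers summed to 16.8 FPKM at day 0, 653.4 at day 6 and 5924 at day 30. The 8 cardiomyocyte markers summed to 2.88, 371.7 and 217.5, and were thus higher at day 6 than at day 30. The 7 liver and gut endoderm markers summed to 0.709, 428.4 and 484.7 FPKM. At day 30 this was more than the cardiomyocyte markers, with AFP at 299 and APOA1 at 125. Blood cells, in which TET2 is well known, were checked by 7 markers that summed to 0.330 FPKM at day 0, 3.23 at day 6 and 11.0 at day 30. RUNX1 and CD14 made up most of that sum at 5.19 and 4.98 FPKM, PTPRC, the pan-leukocyte marker, was at 0.0618 FPKM, and the haemoglobin genes HBE1 and HBG1 had 0. The part of these cell types in the TET2 level was not tested. TET2-AS1, an antisense gene inside TET2, had at most 9 reads in any library, against 912 reads of TET2 in the same library.

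TET3 lies on the plus strand at chr2:73986404-74108176 and had the smallest range of log2(FPKM + 1) of the 8 genes, 0.31. It was at 4.72 FPKM at day 0, 5.97 at day 2, 5.91 at day 3, 5.64 at day 4, 6.07 at day 6 and 6.04 at day 30. The low library was that of day 0, and the highest and lowest levels differed by a ratio of 1.29. Within the TET genes TET1 made up 87.1% of summed FPKM at day 0 (86.3 to 87.8), 68.9% at day 2, 74.4% at day 3, 66.9% at day 4, 65.9% at day 6 and 56.2% at day 30 (54.5 to 57.9). TET2 went from 2.13% to 18.7% between day 0 and day 30, and TET3 from 10.8% to 25.2%. TET1 was the most abundant TET gene per length in every library.

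**Figure D4:**
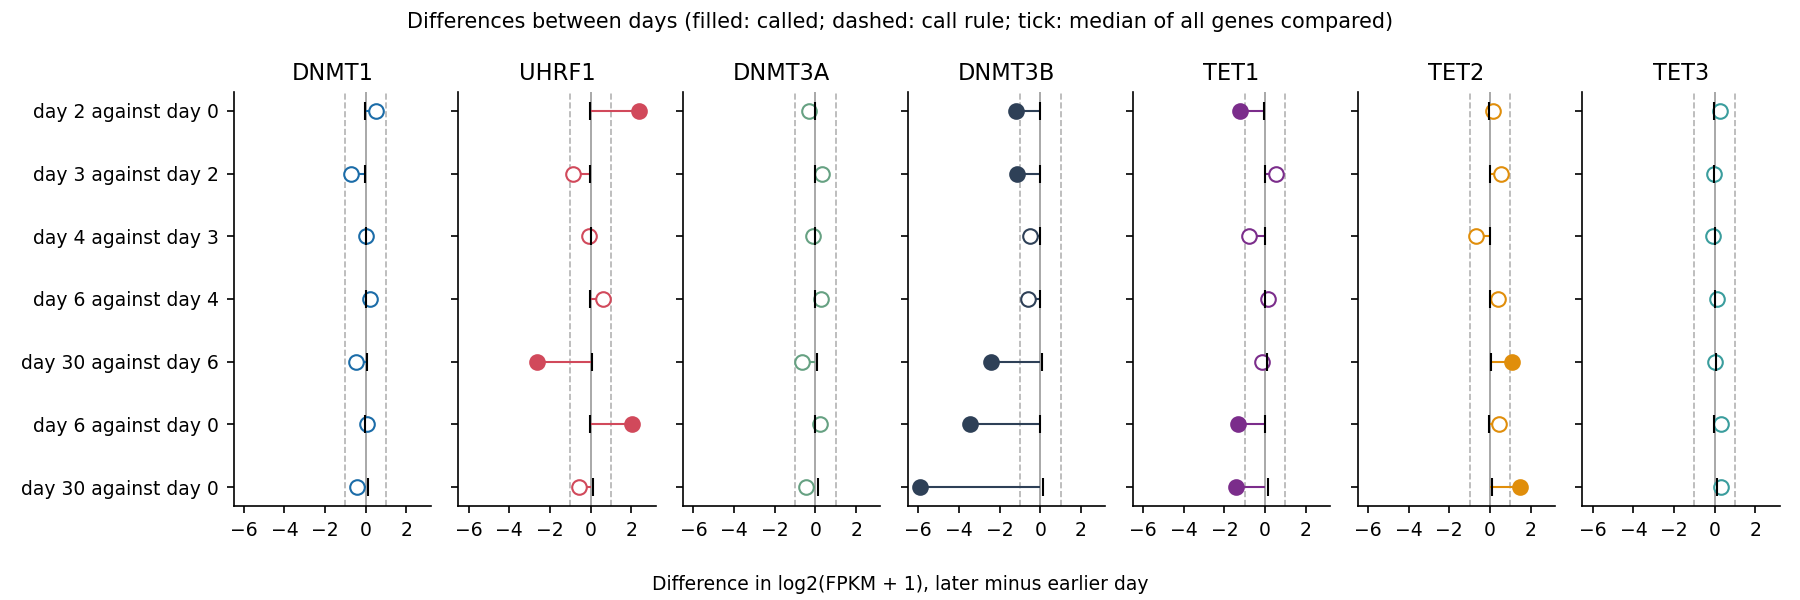
Difference in log2(FPKM + 1), later minus earlier day, for 7 genes in 7 comparisons. Filled points were called, dashed lines mark the rule of 1, and black ticks mark the median of all genes compared. DNMT3B is called lower in 5 comparisons, TET1 lower in 3, UHRF1 higher in 2 and lower in 1, and TET2 higher in 2.

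DNMT3B was the most abundant member from day 0 to day 6. At day 0 it was followed by TET1, DNMT1, DNMT3A, TET3, UHRF1, TET2 and DNMT3L, with no neighbouring intervals overlapping. At day 30 the order was TET1, DNMT1, DNMT3A, TET3, DNMT3B, TET2, UHRF1 and DNMT3L, where TET1 and DNMT1 overlapped, and so did TET3 and DNMT3B. UHRF1 and TET1 overlapped at day 2, and UHRF1 and DNMT3A at day 6. The order depends on the gene length used for scaling. The deposited length of DNMT1 is 9796 bases, the union of all exons, and its principal transcript has 5408. With the principal length DNMT1 was at 31.6 FPKM at day 0 and 23.0 at day 30, above TET1 (13.5) at day 30, and TET2, with 16474 against 10166 bases, was at 7.26 at day 30, above TET3 (6.50) and DNMT3B (6.33).

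The genes with the nearest profiles over the 6 days were sought among 13865 protein-coding genes, by the root mean square difference of centred log2(FPKM + 1). For DNMT3B these were DPPA4 (0.352), a pluripotency marker that went from 333 to 1.81 FPKM, PTPRZ1 (0.448) and ZSCAN10 (0.530), and no gene lay within 0.25. UHRF1 had 1 gene within 0.25, POMC (0.210), followed by FAM83H (0.293) and HHEX (0.314). The nearest to TET1 were DBP, STX6 and BPTF (0.0985 to 0.140), with 79 genes within 0.25, and those nearest to TET2 were HECTD4, PHLDA3 and CDKN1B (0.0344 to 0.114), with 237. DNMT1 (NOP9, SLC35F2, RRP1B), DNMT3A (DHRS4L2, COX20, ANKRD46) and TET3 (RAPGEF2, QRICH1, FAM120C), which varied little, had 1030, 1225 and 2180 genes within 0.25. DNMT3B and UHRF1, which had the largest ranges of log2(FPKM + 1) among the members (5.89 and 2.98), thus had few near neighbours in these 6 libraries. Among the members without DNMT3L, which was left out of these distances, DNMT3A and TET3 lay nearest to each other (0.264). DNMT3B and TET2 lay farthest apart (2.30). The measure is not scaled for the size of a change, so these counts and distances cannot tell a distinct shape from a large or small range.

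Other genes of the pathway were described by lists, beside a median log2 difference of 0.13 for all genes compared between day 0 and day 30, of which 25.9% were called higher and 19.1% lower. Of 13 genes listed as partners of maintenance methylation and compared, 8 were called lower and none higher, with a median of -1.11. With GC bins subtracted 7 were lower, and with a minimum FPKM of 5, 6 of 11 were. Among the 8, EHMT2 lay on the rule at -1. DPPA3 had 22 reads at day 0 and 0 at day 30, and its action on maintenance was not examined. HELLS and CDCA7, parts of a remodeller that opens chromatin for maintenance methylation, fell 22.8-fold (18.5 to 28.3) and 14.1-fold (11.1 to 18.0), and PCNA, the sliding clamp of replication, fell 10.3-fold (8.83 to 12.2). UHRF2, a relative of UHRF1, was at 7.45 and 8.85 FPKM and ZNF445, a guardian of imprints, at 4.32 and 7.96, both short of the rule. Several members of this list are also replication genes, and the S phase list fell on the same day.

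Of 8 genes listed as readers of methylated DNA and compared, 5 were called higher at day 30 than at day 0, none lower and 3 not called. Their median was 1.15. MBD3, 1 of those not called, was at 3.79 and 6.20 FPKM, and its binding to methylated DNA was not examined. With GC bins subtracted 4 were higher, with a median of 0.86. ZBTB38 was 5.15-fold higher (4.61 to 5.76), ZBTB4 was 3.83-fold higher (3.48 to 4.23) and MBD2 was 2.87-fold higher (2.49 to 3.32), while MBD4, a glycosylase, was at 13.5 and 13.9 FPKM and ZBTB33 at 6.39 and 6.76. Of 13 histone enzymes that set or remove H3K36 and H3K4 methylation, marks that guide or repel the DNMT3 enzymes, 3 were higher (KMT2B, NSD3 and KDM2A) and 1 lower (KDM2B, 4.99-fold, 4.57 to 5.45), with a median of 0.45. Of all genes compared, 25.9% were higher and 19.1% lower, so the numbers of histone enzymes called were near or below the background. With scaling by read totals 4 readers were higher and none lower, and the histone enzymes split into 1 higher and 3 lower.

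Of 13 genes for the removal of oxidised cytosine, 3 were higher and 3 lower, numbers near the 25.9% and 19.1% of all genes. The 3 higher genes were GADD45A, GADD45B and GADD45G, stress-response genes linked to demethylation, with GADD45G 32.3-fold higher (22.7 to 47.5). The 3 lower genes were PARP1, LIG3 and NEIL3 of DNA repair, with PARP1 14.3-fold lower (13.1 to 15.6), and TDG, the glycosylase that excises the oxidised bases, was at 16.8 and 9.05 FPKM and was not called. Of 12 partners and cofactor genes of TET enzymes compared, 1 was higher and 4 lower, beside the same shares of all genes. WT1, a transcription factor that binds TET2, went from 0 reads to 14.8 FPKM, and IDH1, which makes the cosubstrate 2-oxoglutarate, fell 7.60-fold (6.86 to 8.42). The other IDH genes of the list were not called, with IDH2 at 26.1 and 47.8 FPKM and IDH3A at 2.48 and 2.57. Of 16 genes of the methyl donor cycle compared, 3 were higher and 5 lower, and 8 were lower with scaling by read totals. The first of these counts also lie near the shares of all genes. MAT2A, which makes the methyl donor S-adenosylmethionine, fell 2.59-fold (2.43 to 2.76), MTHFD1 of folate metabolism fell 5.61-fold (4.94 to 6.40), and NNMT, which consumes the donor, went from 0 reads to 21.9 FPKM.

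Germline genes that are known to be silenced by promoter methylation were low throughout. None of the 17 reached 1 FPKM at day 0 or day 30, 1 or 2 did on the days between, and their summed FPKM was 3.36 at day 0, 4.05 at day 2, 2.87 at day 3, 3.94 at day 4, 3.06 at day 6 and 2.07 at day 30. The sum was lowest at day 30, where PIWIL2 (0.943 FPKM) and BRME1 (0.632) made up most of it, so it describes few genes. BRME1 went from 0.394 FPKM at day 0 to 2.03 at day 6, which was called higher. PIWIL2 was at 0.121 FPKM at day 3, 1.32 at day 4 and 0.121 at day 6. DNA methylation itself was not measured in these files.

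**Figure D5:**
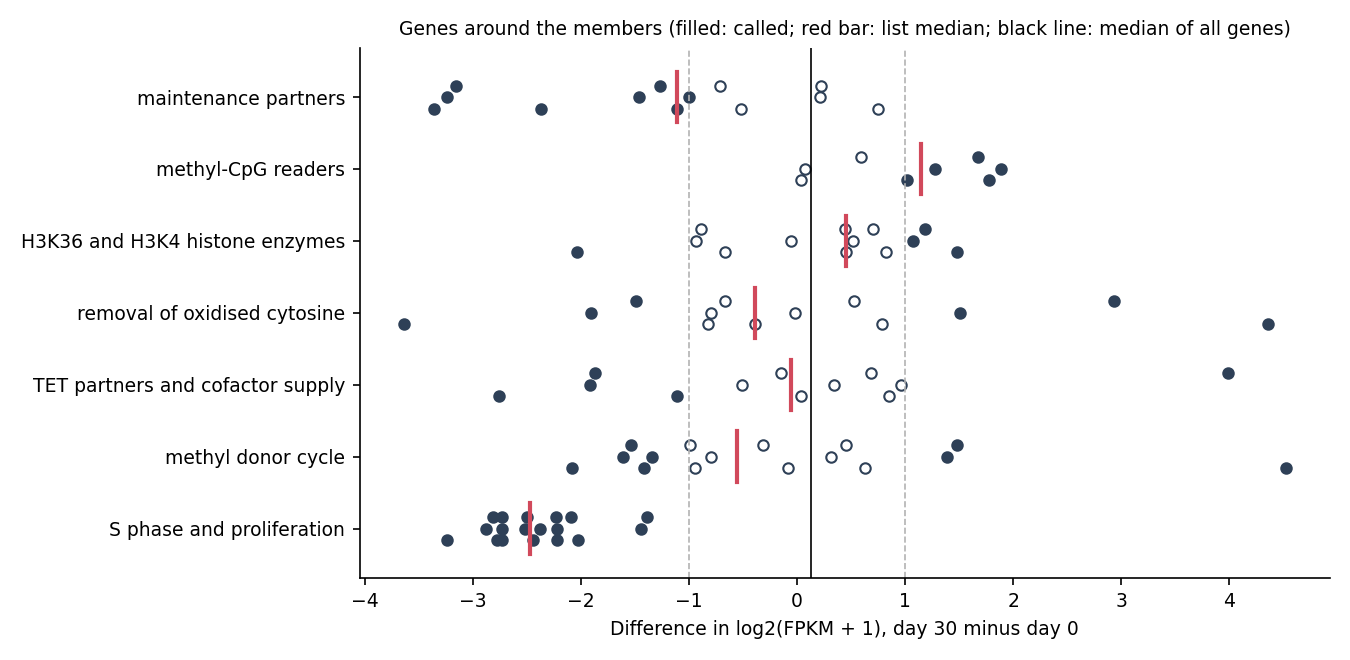
Day 30 minus day 0 in log2(FPKM + 1) for the genes compared in 7 lists. Filled points were called, the red bar is the list median, dashed lines mark the rule of 1, and the black line is the median of all genes, 0.13. All 18 S phase genes and 8 of 13 genes listed as maintenance partners are called lower, and 5 of 8 genes listed as methyl-CpG readers are called higher.

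The start windows of the members also differed in CpG content, which the choice of genes did not use. Of all windows of 300 bases the median held 14 CpG sites. UHRF1 windows held 36 to 46, DNMT1 30, TET3 33 and 45, TET2 13 and 35, DNMT3A 18 to 46 and TET1 6 to 11. The DNMT3B window, at the inner start named above, held 3, and 2 of the 3 TET1 windows lie 39612 and 39818 bases inside that gene. The TET1 windows were thus below the median of all windows and those of UHRF1, DNMT1, TET3 and DNMT3A above it.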

How the data were processed

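The authors deposited 1 table of FPKM values for 58735 genes and 6 libraries. The submitters' processing notes name featureCounts 1.5.0-p3 for counting, besides CASAVA and HISAT2; the sources used here do not give the genome build, the counting settings or the use of strand. All 58735 genes matched GENCODE 29 (GRCh38) in start, end and strand. Each FPKM value times the length of its gene came to a whole number of a fixed step in its library, with a tolerance of 0.001 read and for 100% of 170890 nonzero values, which gave the reads behind the values. Differences used log2(FPKM + 1), a minimum FPKM of 1 in either library and a rule of 1. Intervals are exact Poisson (levels), conditional binomial (ratios) and Clopper-Pearson (shares), and PCR duplicates were not marked by molecular identifiers. The count model of a replicated design was not used, since there was 1 library per day. The deposited denominators were 0.826 (day 30) to 1.12 (day 6) times the read totals. Scaling by read totals shifts log2 values by -0.29 at day 30, and TMM scaling by -0.13. Overlapping and antisense genes may share reads.

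The members and lists were chosen with earlier results of these data known. Named genes were all members, the 3 nearest profiles of each, and the list genes with the largest and smallest differences or against their list. The result of 1 gene that this rule names is not reported here. Alternatives were a pseudocount of 0.1, no minimum or a minimum of 5, other scalings, other rules, and, chosen after seeing the data, GC bins (20) and principal transcript lengths. Python 3.11.15, numpy 2.4.6, pandas 2.3.3, scipy 1.17.1 and matplotlib 3.10.9 were used.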

Additional observations from a re-analysis of the deposited data

How the results depend on the processing

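With 1 library per day, no library could be left out and no paired analysis was possible because each day has a single library. No called difference of a member reversed under the alternatives run. The numbers of members called (3, 1, 0, 0, 3, 3 and 3 for day 2 against 0, 3 against 2, 4 against 3, 6 against 4, 30 against 6, 6 against 0 and 30 against 0) depended mainly on the rule. A counting interval that excludes 1 gave 7, 6, 4, 6, 6, 6 and 7. At day 2 against day 0 it also called most of all 16019 genes compared, 5258 higher and 5727 lower. At day 30 against day 0 it called 7703 higher and 6591 lower of 17874. A log2 difference of 2 gave 1 at day 2 against day 0, 0 at day 3 against day 2 and 1 at day 30 against day 0. Of all genes it called 302 higher and 133 lower of 16019, 144 and 69 of 16149, and 1513 and 856 of 17874. A 1.5-fold rule gave 3 at day 3 against day 2, 2 at day 4 against day 3 and 2 at day 6 against day 4. Its calls over all genes were 2691 higher and 2285 lower of 16149, 1642 and 1518 of 16376, and 2135 and 2411 of 16727. TPM scaling gave 0 at day 3 against day 2, 1 at day 4 against day 3 and 5 at day 30 against day 6. Over all genes it called 4143 higher and 1959 lower of 23425, 2240 and 2369 of 23835, and 5512 and 7209 of 25626. A pseudocount of 0.1 gave 1 at day 4 against day 3, beside 1260 higher and 1101 lower of 16376 genes. With GC bins subtracted, chosen after seeing the data, TET1 at days 2 and 6 against day 0 and TET2 at day 30 against day 6 were no longer called, and UHRF1 was called lower at day 30 against day 0. The call of TET2 at day 30 against day 6 was also lost with read totals, TMM, a minimum of 5 and a log2 difference of 2. Its call at day 30 against day 0 was lost with a minimum of 5 and with a log2 difference of 2. DNMT3B was called lower at day 30 against day 0, at day 30 against day 6 and at day 6 against day 0 under every alternative run. The same was true of UHRF1 as higher at days 2 and 6 against day 0 and as lower at day 30 against day 6. The cause of the calls that changed between alternatives was not tested.

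Over the pathway lists, 9 genes were called at day 2 against day 0 and 36 at day 30 against day 0. Of all genes compared, 8.78% were higher and 7.75% lower at day 2, and 25.9% and 19.1% at day 30. These totals show how the settings act and are no result about the lists. At day 2 the number was 16 with TPM scaling, 1 with a rule of 2, 24 with the 1.5-fold rule and 55 with the counting interval. At day 30 it was 12, 55 and 68 with the last 3 of these. The settings moved all genes as well. At day 2 against day 0, TPM scaling called 3625 higher and 2781 lower of 22662 genes. The 1.5-fold rule called 2893 higher and 2928 lower of 16019 there, and 6553 and 5247 of 17874 at day 30 against day 0.

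The DNMT3B share, in order of day, was 93.8%, 89.3%, 74.4%, 69.1%, 53.7% and 23.9% of reads without gene length, and 97.1%, 94.8%, 86.4%, 83.0%, 71.7% and 40.7% with principal transcript lengths. The TET1 share was 82.9%, 61.3%, 66.8%, 59.2%, 57.7% and 45.9% of reads, and 85.3%, 65.4%, 70.4%, 63.5%, 61.8% and 49.5% with principal lengths. Depth limits DNMT3L, with at most 10 reads in a library.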
